A study of Mus musculus with 20 samples.

Results

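Gene expression was compared between 4 metastases and 7 primary bladder tumours of genetically engineered mice, 11 of the 20 arrays of the series. The arrays were chosen by their titles alone (M1 to M4 and TUMOR1 to TUMOR7), and no measured value entered that choice. All samples came from CKO mice on the FVB/N background. These carry floxed alleles, that of Rb1 among them, which Cre recombinase can delete, and per the labels they lack p107, the product of Rbl1. The metastases were labelled metastatic tumours from these mice. The primary tumours were bladders given an adenovirus carrying Cre, and which cells the virus reached was not measured. Neither group is labelled as drug treated. A further metastasis (PALBO-MET), linked to the Cdk4/6 inhibitor palbociclib by its title only, is shown beside the 4 and counted with neither group. The arrays not compared here were 5 bladders of CKO mice with no virus and 3 inoculated bladders of mice given palbociclib (150 mg/kg each day for 28 days) and the platinum compound CDDP (6 mg/kg each week). They entered the statistical model as groups of their own. The labels give neither the organ from which a metastasis was taken nor the animal behind any array, so a metastasis could not be matched to its tumour. Whether replicates were separate animals is not stated either, and p-values measure only the spread between these samples.

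Bladder tumours start in the urothelium, an epithelium with a luminal layer rich in uroplakins and a basal layer marked by keratin 5 and p63. Carcinoma cells that spread can lower the junction proteins that hold an epithelium together, among them E-cadherin and claudins, and proteases of the tumour and of its macrophages can open the matrix in front of them. A metastasis grows inside another organ, so RNA prepared from it holds transcripts of the tumour cells, of the immune cells that entered and of the host tissue. In such bulk RNA, fewer cells of a type and less RNA per cell cannot be told apart, which holds for every cell type marker below.

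Values are RMA expression levels on the log2 scale, where a difference of 1 is a 2-fold difference, and array medians lay between 5.11 and 5.48. A level of 5.10, the 40th percentile of all rows, is called dim here. On 8 of the 20 arrays, dim rows were noisier (SD over 0.3) and deviations from the mean of all arrays correlated with those of no other array at 0.25 or more. Metastases 3 and 4 and tumours 3, 4 and 5 belong to these low-contrast arrays, a set drawn up after values were seen. The remaining 12 arrays hold metastases 1 and 2, tumours 1, 2, 6 and 7, the palbociclib metastasis, 2 normal bladders and the 3 treated ones. Most results below differ between these sets and are given for both. The urothelial gene Upk1b, an uroplakin partner, read 8.43, 12.14, 10.11 and 10.35 on metastases 1 to 4, inside the range of the tumours (6.49 to 14.41, median 10.64). The labels give no sex, and the Y-linked gene Eif2s3y read 6.43, 6.04, 5.45 and 5.52 on the metastases against 4.66 to 6.09 on the tumours, with tumour 6 lowest.

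With all arrays in the model, no gene of 30142 (0.0%) passed an adjusted p of 0.05 between metastases and tumours (limma, Benjamini-Hochberg), and the smallest adjusted p was 0.207. An unadjusted p under 0.05 was reached by 1745 genes (5.79%), of which 728 (2.42%) were higher and 1017 (3.37%) lower in metastases. Only 41.7% of these were thus higher, but the share was 58.9% with arrays centred on their medians, 57.3% after renewed quantile normalisation and 53.6% without dim genes. The direction of the bulk of small differences therefore depends on the scaling, and the median difference of all genes was −0.03. All 4 metastases lay above all 7 tumours for 37 genes (0.123%) and below them for 115 (0.382%). An exact permutation test over the 330 ways to draw 4 of the 11 arrays, 2-sided, passed no gene after adjustment, with 1397 genes (4.63%) at an unadjusted p under 0.05.

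Over the 12 arrays outside the low-contrast set, 3 genes (0.00995% of those tested) passed, and all rose in the metastases. They were Ahsg, which codes for fetuin-A, a plasma glycoprotein secreted by the liver, Lyz1, a lysozyme, and Ctsk, the collagen-degrading protease cathepsin K. Because that set was left out after values were seen, these calls are less independent than a test planned without them. At an unadjusted p under 0.05 stood 1540 genes (5.11%), with 946 (3.14%) higher and 594 (1.97%) lower. In the low-contrast set alone, metastases 3 and 4 against tumours 3, 4 and 5 passed no gene (0.0%; smallest adjusted p of 0.678 by limma), with 1566 (5.2%) at an unadjusted p under 0.05. A test of whether the difference itself changed between the sets was passed by Ahsg and Lyz1 (0.00664% of genes). The low-contrast set was drawn up from the same values, as arrays whose deviations correlate with no other. This test is therefore not independent of that choice either.

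Ahsg read 10.16 and 9.86 on metastases 1 and 2 and 6.27 and 6.32 on metastases 3 and 4. On tumours 1 to 7 it read 5.58, 5.83, 6.42, 6.26, 6.07, 4.80 and 5.09. Every tumour was far below metastases 1 and 2, and metastases 3 and 4 lay among the highest tumours. The difference over the 12 arrays was 4.68 ± 0.33 (SE), with an adjusted p of 0.00178 by limma, against 0.04 within the low-contrast arrays, and these 2 values differed by 4.64 (adjusted p of 0.00036). Over all arrays the group means were 8.15 ± 2.15 in metastases (SD, n = 4) and 5.72 ± 0.60 in tumours (SD, n = 7). On the normal and treated bladders Ahsg did not exceed 6.63, so that metastases 1 and 2 held its highest levels in the series.

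Lyz1 read 10.72 and 10.37 on metastases 1 and 2, 7.56 and 7.75 on metastases 3 and 4, and 6.38, 7.08, 6.98, 7.23, 7.79, 7.19 and 7.27 on tumours 1 to 7. The palbociclib metastasis was also high, at 9.55, while metastases 3 and 4 lay below tumour 5. The difference was 3.57 ± 0.27 (SE) over the 12 arrays, with an adjusted p of 0.00178 by limma, and 0.32 within the low-contrast arrays. The change of the difference, 3.25, passed as well (adjusted p of 0.00769). Lyz1 and its neighbour Lyz2 are near-identical in sequence, so their probes may read each other's transcripts and which of them was raised is uncertain.

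Ctsk read 7.61, 7.93, 6.54 and 5.73 on metastases 1 to 4, and 5.42, 5.53, 6.06, 6.07, 6.05, 5.80 and 5.49 on tumours 1 to 7. Metastases 1, 2 and 3 were above every tumour and metastasis 4 was inside their range. The difference over the 12 arrays was 2.22 ± 0.17 (SE; adjusted p of 0.00181 by limma). Within the low-contrast arrays it was 0.08, and the change between the sets, 2.14, missed the threshold (adjusted p of 0.0523).

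**Figure D1:**
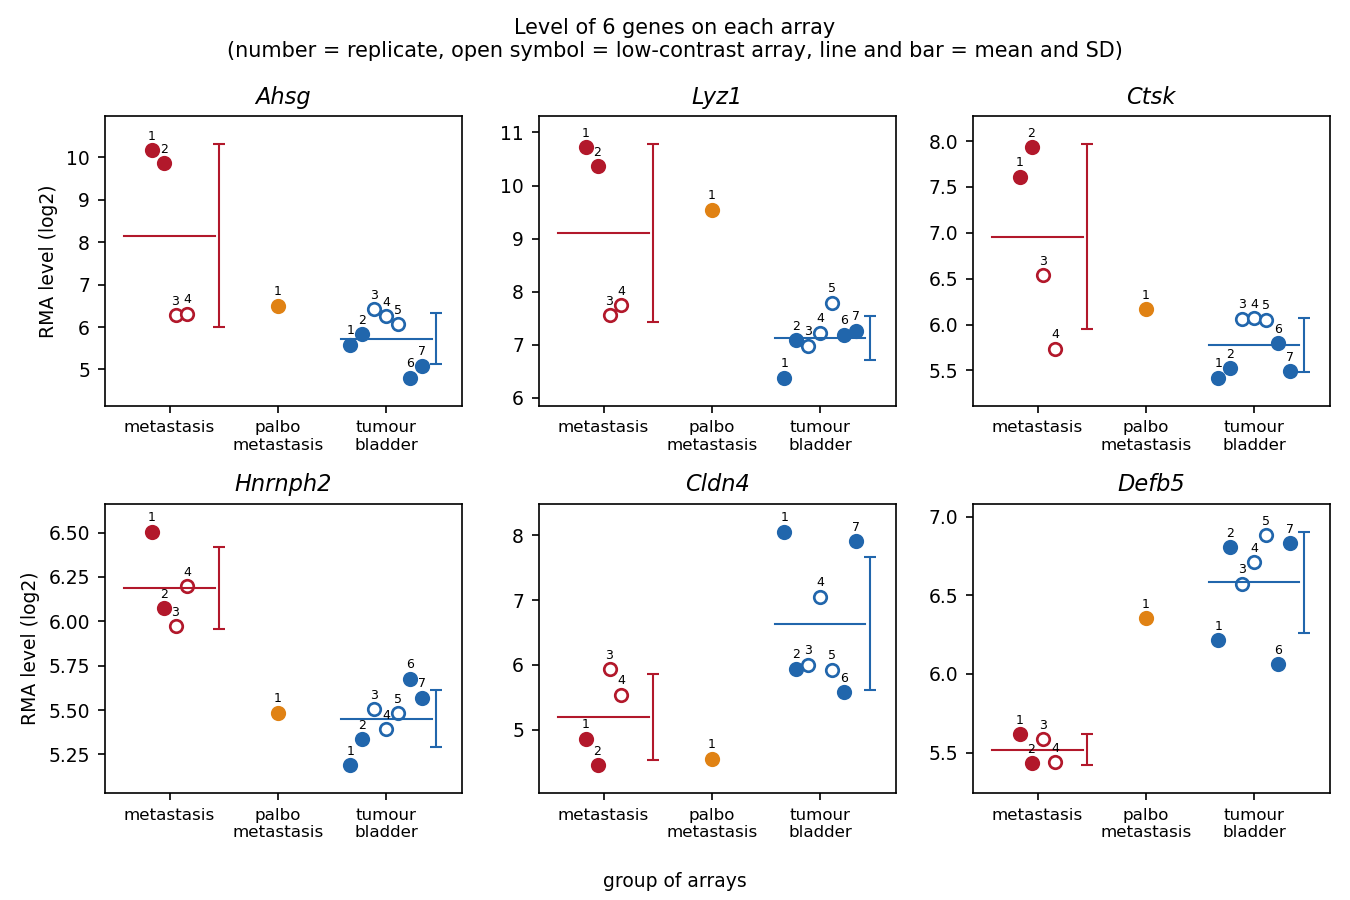
Log2 RMA level (y axis) of 6 genes on each array, by group (x axis: metastases, the palbociclib metastasis, tumour bladders); numbers are replicates, open symbols are low-contrast arrays, and lines with bars are the mean and SD of the 4 metastases and the 7 tumours. Ahsg, Lyz1 and Ctsk are high on metastases 1 and 2, whereas Hnrnph2 and Defb5 separate all 4 metastases from all 7 tumours, by a smaller step.

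The promoters of these 3 genes are shown because the genes rose together. Each is the 250 bases before the transcription start in RefSeq (build GRCm38.p6), 5′ to 3′ on the strand of the gene, with Ahsg at chr16:22891765-22892014 (plus strand), Ctsk at chr3:95498960-95499209 (plus strand) and Lyz1 at chr10:117292869-117293118 (minus strand). Capitals mark matches, on either strand, to a motif among the 4 searched. The first is GAGGAA, a core bound by ETS factors such as PU.1 of myeloid cells. The next is TTGCNNAA, bound by C/EBP, a factor family of liver and myeloid cells. GATA factors bind GATAAG, which was the third. The last was the TATA box, spelled TATAAA.
Ahsg: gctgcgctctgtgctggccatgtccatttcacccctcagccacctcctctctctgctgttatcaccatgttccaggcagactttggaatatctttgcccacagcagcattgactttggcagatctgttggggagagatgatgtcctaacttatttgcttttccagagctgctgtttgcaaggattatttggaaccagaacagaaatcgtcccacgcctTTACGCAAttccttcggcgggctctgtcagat
Ctsk: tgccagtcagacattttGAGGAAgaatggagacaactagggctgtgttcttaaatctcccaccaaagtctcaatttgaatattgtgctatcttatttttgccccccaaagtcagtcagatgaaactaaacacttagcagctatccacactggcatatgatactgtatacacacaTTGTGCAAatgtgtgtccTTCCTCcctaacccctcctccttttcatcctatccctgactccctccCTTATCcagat
Lyz1: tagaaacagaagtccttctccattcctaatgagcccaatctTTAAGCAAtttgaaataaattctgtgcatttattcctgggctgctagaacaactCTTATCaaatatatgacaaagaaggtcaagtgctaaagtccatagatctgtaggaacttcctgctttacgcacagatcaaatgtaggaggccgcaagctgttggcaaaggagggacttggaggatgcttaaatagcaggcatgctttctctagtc
The letters TTGCNNAA are in all 3 promoters, once in each, where 9.56% of 32851 promoters of this length hold them. GAGGAA is in that of Ctsk only, 2 times (23.3% of all promoters), and GATAAG in those of Ctsk and Lyz1 (6.55%). TATAAA is in none of the 3 (12.4% of all promoters). No match overlaps another, and a match is a stretch of letters, not a shown binding site. The 3 genes were chosen by their levels, and whether they share a regulator was not tested.

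Leaving out either of metastases 1 and 2 from the 12 arrays kept Ahsg, Lyz1 and Ctsk past the threshold and brought in further genes, all of them higher. With metastasis 1 left out, 13 genes passed, and with metastasis 2 left out, 28. The metastasis that remains is then a single array whose spread is taken from the other groups. Without tumour 6 there were 5 calls, with the chemokine receptor Cxcr4 and the lectin receptor Clec4d added. Counting the palbociclib metastasis with the group left only Lyz1, and fitting the metastases and tumours without the other groups left only Ahsg.

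Genes of macrophages and monocytes were higher on metastases 1 and 2. Of 19 measured members of the list, 15 were higher in metastases over all arrays, against 43.9% of all genes, and their median difference was 0.50 (all genes −0.03). An unadjusted p under 0.05 was reached upward by 5 members (Csf1r, Adgre1, C1qa, Lyz2 and Clec4d), against 2.42% of all genes. Downward it was reached by 1 (Ly6c1, an antigen of monocytes and endothelium), against 3.37%, and no member passed after adjustment. The median was 0.999 over the 12 arrays and 0.02 within the low-contrast ones. Without metastasis 1 it was 0.13 over all arrays and 0.39 over the 12. Mean levels of the list were 7.75, 6.99, 6.31 and 6.32 on metastases 1 to 4, 7.53 on the palbociclib metastasis, and 5.79 to 6.92 on the tumours (median 6.35). All tumours were thus below metastases 1 and 2, though close to metastasis 2, and metastases 3 and 4 were inside their range. Metastases 1 and 2 both lay above tumours 1, 2, 6 and 7 for 7 of the 19 members, against 1427 genes in all (4.73%), and metastases 3 and 4 above tumours 3, 4 and 5 for 2 (9.96% of all genes).

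Lyz2, the lysozyme of macrophages and neutrophils, was among the brightest, at 12.87, 12.77, 9.47 and 9.82 on metastases 1 to 4 and 7.21 to 10.80 on the tumours (median 9.50). Tlr7, an endosomal receptor for single-stranded RNA, read 9.20, 9.59, 7.40 and 7.95 on the metastases and 6.06 to 7.81 on the tumours (median 7.40). Ccl6, a chemokine of myeloid cells, read 11.48, 10.29, 8.36 and 8.41, against 7.17 to 9.74 (median 8.23). For each of these genes metastases 1 and 2 were above every tumour, and metastasis 3 was not.

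C1qb, a chain of the first complement component, read 10.69, 8.24, 5.99 and 5.75 on metastases 1 to 4 and 4.78 to 7.65 on the tumours. Csf1r, the receptor that keeps macrophages alive, read 7.28, 6.99, 6.43 and 6.01, against 5.65 to 6.62. Cd68, a lysosomal glycoprotein of macrophages, read 8.01, 8.29, 6.02 and 6.21, against 5.75 to 7.16. Metastases 1 and 2 exceeded every tumour in these 3 genes, with metastasis 1 well above metastasis 2 in C1qb. In contrast, Adgre1, a surface antigen of mouse macrophages, was at 6.96 on metastasis 1 and 6.16 on metastasis 2 with tumours at 5.50 to 6.31. The complement receptor Vsig4, a gene of tissue-resident macrophages that was chosen after its values were seen, read 8.47 and 7.50 on metastases 1 and 2 and 5.79 and 5.69 on metastases 3 and 4, against 4.51 to 6.77 on the tumours.

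Proteases with a part in invasion moved in part with the macrophage genes. Of 18 measured members, 11 were higher in metastases (43.9% of all genes), with a median difference of 0.16 over all arrays. This median was 0.079 without tumour 1 and 0.27 without tumour 6. Without metastasis 1, 2 or 4 it was 0.083, 0.093 and 0.28. The median was 0.48 over the 12 arrays and 0.00 within the low-contrast arrays, where 9 members were higher and 9 lower. The 6 members at an unadjusted p under 0.05 were all higher (2.42% of all genes): Ctsb, Ctsk, Ctsl, Mmp9, Mmp11 and Mmp12. Cathepsin L (Ctsl) read 7.82, 9.60, 6.70 and 7.04 on metastases 1 to 4 and 5.51 to 7.58 on the tumours. Cathepsin B (Ctsb) read 10.54, 10.78, 8.77 and 8.32, against 6.68 to 9.70. The gelatinase gene Mmp9 read 6.95, 6.19, 5.36 and 5.26, against 4.79 to 5.63, and the macrophage elastase gene Mmp12 read 6.39, 6.00, 5.24 and 5.63, against 5.03 to 5.43. In each of these 4 genes metastases 1 and 2 exceeded every tumour. Mmp2, Mmp14 and Plau, proteases of fibroblasts and tumour cells, had differences of −0.13, 0.10 and −0.18, and the highest level of the list was on tumour 6 (6.98), not on a metastasis. The macrophage markers above were high on the same metastases, and their part in the levels of the cathepsins was not tested.

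**Figure D2:**
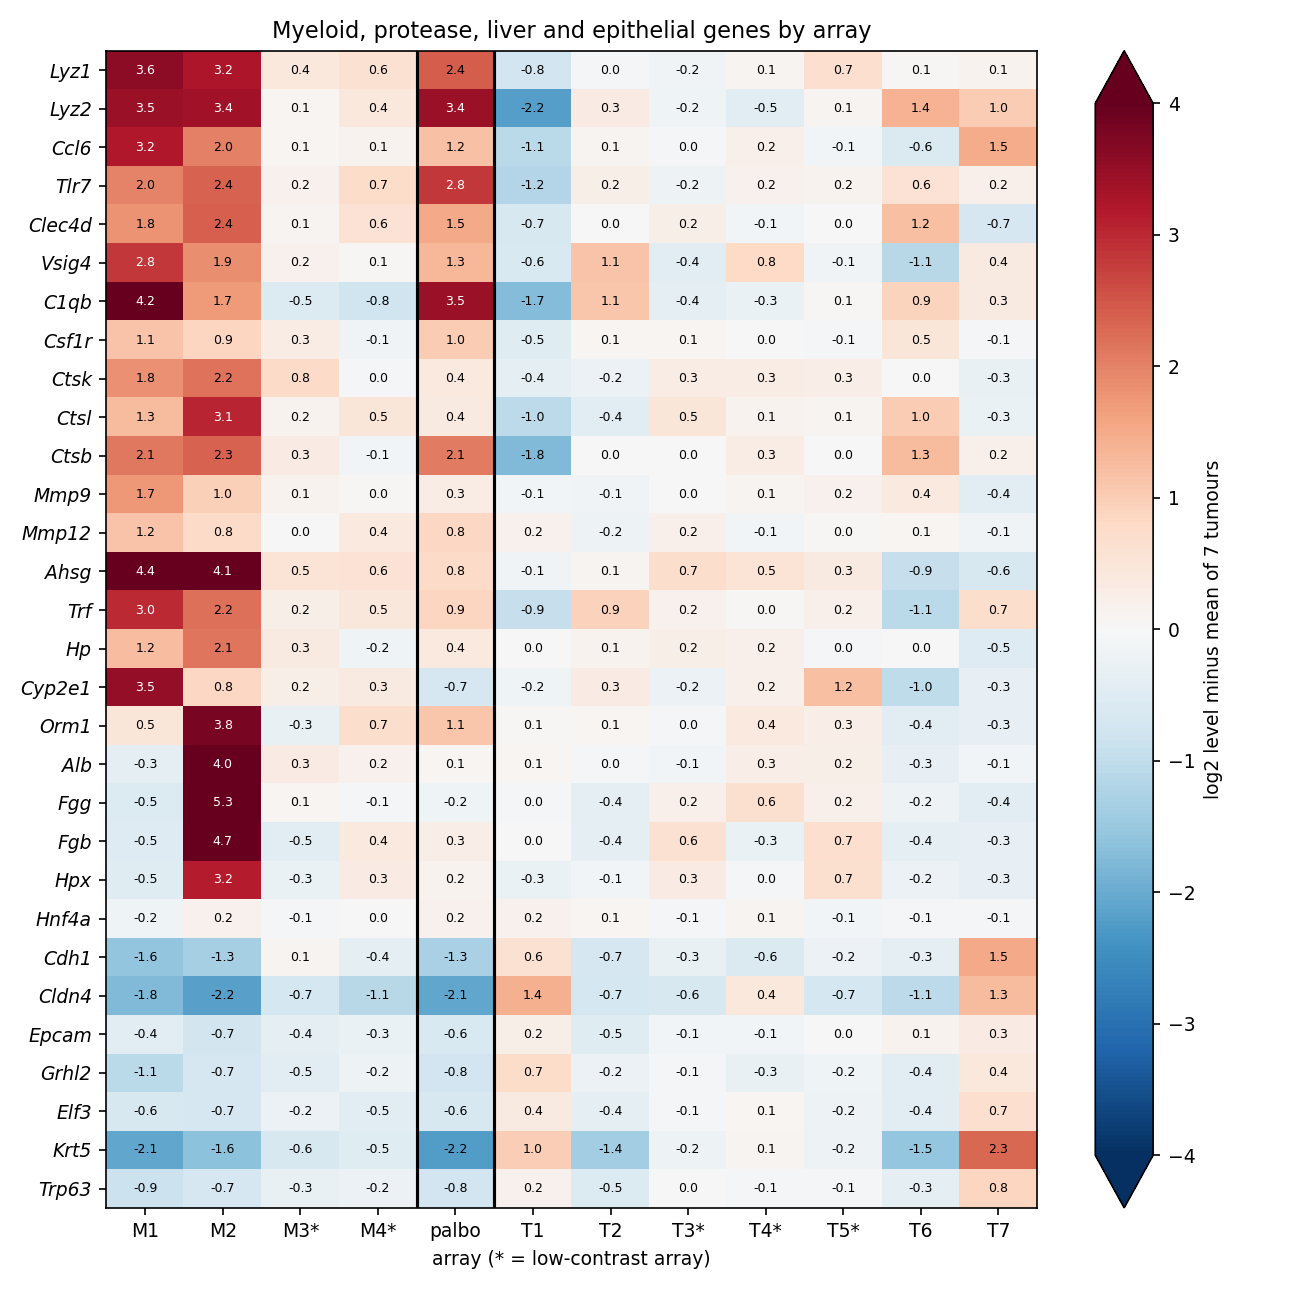
Log2 level minus the mean of the 7 tumours (colour and printed value) for 30 genes (rows) on each array (columns: metastases M1 to M4, the palbociclib metastasis, tumours T1 to T7; stars mark low-contrast arrays). Myeloid genes and cathepsins are high on M1 and M2, Alb, Fgg, Fgb and Hpx on M2, and the epithelial genes at the bottom are low on M1, M2 and the palbociclib metastasis.

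Liver genes gave different pictures on metastases 1 and 2. Metastasis 2 stood above tumours 1, 2, 6 and 7 for 12 of 15 measured members of the liver list, where 11.9% of all genes were. Metastasis 1 stood above them for 4 members (14.4% of all genes) and below them for 9 (26.4%). Over all arrays, 12 members were higher in metastases (43.9% of all genes), and the median difference was 0.24. It was −0.08 without metastasis 2, 0.42 without metastasis 1 and −0.03 within the low-contrast arrays. An unadjusted p under 0.05 was reached by 4 members (Ahsg, Cyp2e1, Trf and Hp), all higher, against 2.42% of all genes. Mean levels of the list were 6.08, 7.16, 5.55 and 5.63 on metastases 1 to 4 and 5.12 to 5.67 on the tumours. Metastases 1 and 2 were above all tumours, metastasis 2 by the wider gap, and metastases 3 and 4 were among them.

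On metastasis 2 the proteins that hepatocytes secrete into blood were high together. Albumin (Alb) read 9.40 there, and 5.03, 5.71 and 5.55 on metastases 1, 3 and 4, against 5.05 to 5.65 on the tumours. The fibrinogen chain gene Fgg read 10.16 there, and 4.33, 4.94 and 4.81 on the others, against 4.45 to 5.49. Fgb, a second chain of fibrinogen, read 9.95, and 4.74, 4.79 and 5.65, against 4.89 to 5.93. All 3 were dim on metastasis 1, where Ahsg was at its highest. With metastasis 1 left out, the fit over the 12 arrays passed Fgg (5.56 ± 0.26, SE; adjusted p of 0.00012 by limma), Fgb, Alb, Fga, Hpx (hemopexin, which binds heme), Orm1 and Orm2 (acute phase proteins), Pzp, Igfbp1 and the immunoglobulin segment Igkv4-57-1 beside Ahsg, Lyz1 and Ctsk. Not all liver genes took part: Hnf4a, a transcription factor of hepatocytes, read 5.66 on metastasis 2 and up to 5.68 on the tumours, and Ttr (transthyretin) read 5.37 there and up to 6.04 on the tumours.

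Metastasis 1 shared part of this list. Trf, transferrin, the iron carrier of plasma, read 11.20, 10.44, 8.47 and 8.68 on metastases 1 to 4, against 7.14 to 9.15 on the tumours. Hp, haptoglobin, which binds hemoglobin, read 9.20, 10.11, 8.33 and 7.81, against 7.48 to 8.22. Cyp2e1, an alcohol-oxidising cytochrome P450, read 9.33, 6.64, 6.05 and 6.15, against 4.79 to 7.01. Metastases 1 and 2 exceeded every tumour in Trf and Hp, metastasis 3 did in Hp, and metastasis 1 alone did in Cyp2e1. Aldh1a1, a retinal-oxidising enzyme of liver and of stem-like tumour cells, read 7.28, 9.05, 6.20 and 6.05, against 4.83 to 6.30. The source organ of a metastasis is not in the labels, and the part of host tissue in these levels was not tested.

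Lists of 4 other organs had no such rise. The median differences were −0.10 for 14 lung genes, −0.11 for 12 kidney genes, −0.05 for 13 intestinal genes and −0.12 for 10 pancreatic genes. Metastasis 2 stood above tumours 1, 2, 6 and 7 for 2 lung genes (11.9% of all genes). For kidney, intestinal and pancreatic genes that count was 0. Metastasis 1 stood above them for 1 lung and 1 kidney gene (14.4% of all genes), and for 0 intestinal and 0 pancreatic genes. Sftpc, a surfactant protein that defines alveolar type 2 cells, read 4.34 to 4.84 on the metastases and 4.47 to 5.16 on the tumours. Umod, which defines the thick ascending limb of the kidney, read 4.47 to 4.89, against 4.59 to 5.31. Both genes were near or under the dim level throughout. Adipocyte genes were higher for 11 of 12 members (43.9% of all genes), with a median difference of 0.14 (0.001 without metastasis 1). None of them reached an unadjusted p under 0.05. Their level was 6.30 on metastasis 1, 5.47, 5.87 and 5.82 on metastases 2 to 4, and 5.36 to 5.92 on the tumours, so that metastasis 1 alone was above. Of 10 mesothelial genes, which mark the lining of body cavities, 7 were above tumours 1, 2, 6 and 7 on metastasis 2 (11.9% of all genes) and 1 on metastasis 1 (14.4%). Upk1b, Upk3b and Krt19 of this list are also in the list of luminal urothelial genes. The level of the mesothelial list was 7.12 on metastasis 2, 5.97, 6.13 and 6.11 on metastases 1, 3 and 4, and 5.24 to 6.65 on the tumours. Wt1, a transcription factor of mesothelium, read 6.65, 6.86, 5.15 and 5.20, against 4.41 to 6.12, and Lrrn4 read 6.29, 7.54, 6.31 and 5.71, against 4.81 to 6.83. Msln, the antigen that gives mesothelin, was at 5.63 on metastasis 2 and at 5.13 or lower on every tumour.

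**Figure D3:**
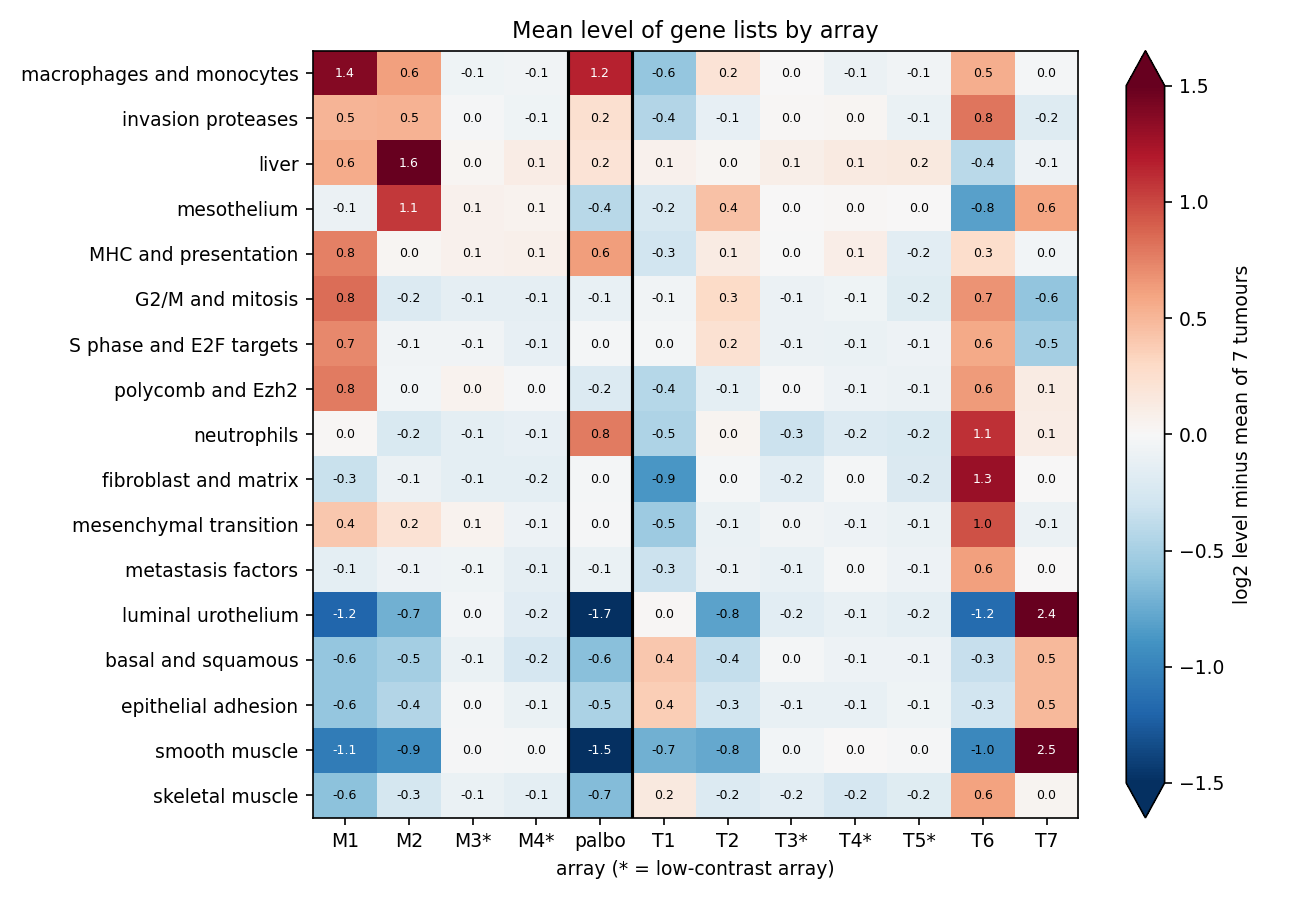
Mean level of 17 gene lists (rows) on each array (columns as M1 to M4, the palbociclib metastasis and T1 to T7; stars mark low-contrast arrays), as log2 level minus the mean of the 7 tumours. M1 and M2 differ in the liver, mesothelial and cell cycle lists and share low epithelial lists, and T7 is far above all in the luminal and smooth muscle lists; M3 and M4 lie near 0 in all.

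Some genes were far higher on metastasis 1 than on any other array. Gstm2, a glutathione transferase, read 11.89 there, 6.92 to 7.30 on the other 3 metastases, and 4.83 to 7.67 on the tumours. Tmem255a, a membrane protein, read 9.47, with 5.13 to 6.12 on the other 3 and 4.71 to 5.63 on the tumours. Cst12, a cystatin-like gene known from mouse testis and epididymis, read 9.08, with 4.80 to 5.06 on the other 3 and 4.62 to 6.39 on the tumours. With metastasis 2 left out, the fit over the 12 arrays passed Tmem255a (4.64 ± 0.27, SE), Cst12 (4.20 ± 0.26, SE) and Defb19, a beta-defensin (2.79 ± 0.18, SE), each with an adjusted p of 0.0011 by limma. Among the 28 calls were also the cystatin genes Cstdc1 and Cst9, and Arg1 and Hmox1, which code for arginase 1 and heme oxygenase 1 and are used by macrophages. Metastasis 1 held 1 of 16 measured genes of male accessory glands, Cst12, above tumours 1, 2, 6 and 7 (14.4% of all genes). It held 6 members of that list below them (26.4% of all genes). Defb19, Cstdc1 and Cst9 are not in the list, so its counts do not bear on them. The tissue source of these levels was not tested.

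Cell cycle genes set metastasis 1 apart as well. The list of 26 genes of G2 and mitosis had a level of 6.71 on metastasis 1, 5.67, 5.75 and 5.74 on metastases 2 to 4, and 5.29 to 6.56 on the tumours. Mki67, the antigen of cycling cells, read 8.96, 6.41, 6.18 and 6.32 on metastases 1 to 4, against 5.25 to 8.25, and Top2a, which untangles DNA in mitosis, read 8.16, 6.08, 6.27 and 6.45, against 5.35 to 8.16. Tumour 6 came next after metastasis 1 in the list and matched it in Top2a, and metastases 2 to 4 lay among the tumours. Of the 26 genes, 19 were higher in metastases (43.9% of all genes), with a median difference of 0.08 (−0.15 without metastasis 1). None of them reached an unadjusted p under 0.05. For 22 genes of S phase, targets of E2F that the Rb family holds in check, the level was 6.76 on metastasis 1, 5.99, 5.99 and 5.91 on the others, and 5.54 to 6.61 on the tumours, again with no member at an unadjusted p under 0.05.

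The pocket protein genes did not pass either. Rb1, the floxed gene, read 6.23, 6.04, 5.94 and 5.70 on the metastases and 5.44 to 6.45 on the tumours, with a difference of 0.01 ± 0.17 (SE) whose sign turned when single arrays were left out. Rbl1, which codes for p107, read 8.30 on metastasis 1, 6.31, 6.61 and 6.74 on the others, and 6.15 to 7.13 on the tumours, so that signal was present at its probes in mice labelled as lacking p107. The part of the gene that its probes read is not given, so these levels do not check the genotype. Rbl2, which codes for p130, read 6.20 to 6.79 against 5.90 to 6.79. In the polycomb group of 9 genes, 7 were higher in metastases (43.9% of all genes), with a median difference of 0.24. The median was 0.34 over the 12 arrays, −0.14 over them without metastasis 1, and 0.05 within the low-contrast arrays. Ezh2 read 8.18, 6.20, 6.88 and 7.09 on metastases 1 to 4, against 6.74 to 7.97 on the tumours. The level of the list was 7.60 on metastasis 1, 6.78, 6.87 and 6.80 on metastases 2 to 4, and 6.39 to 7.45 on the tumours. Rbbp4, a histone chaperone that also binds Rb, alone reached an unadjusted p under 0.05, upward (2.42% of all genes). Rbbp4 read 8.22, 7.20, 6.93 and 6.95 on the metastases and 6.36 to 7.25 on the tumours.

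**Figure D4:**
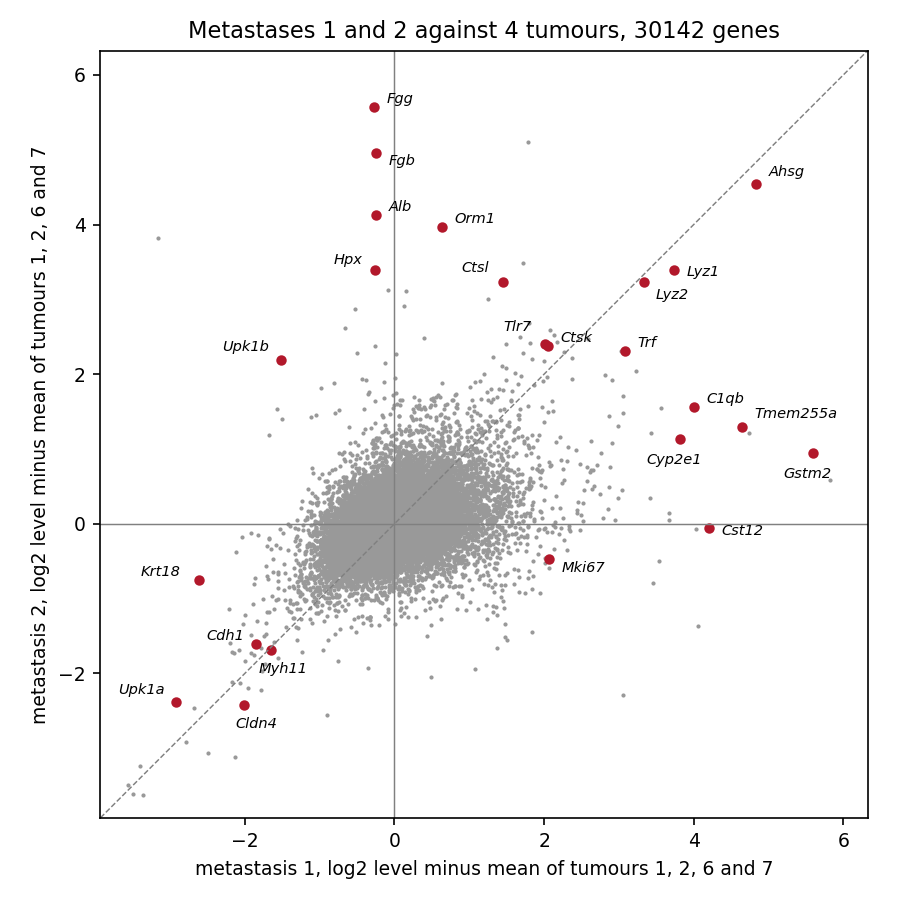
Each gene's level on metastasis 1 (x axis) and metastasis 2 (y axis), as log2 level minus the mean of tumours 1, 2, 6 and 7, for 30142 genes (grey) with named genes in red; both axes share these 4 tumours. Ahsg, Lyz1, Lyz2, Trf and Ctsk are high on both, Fgg, Fgb and Alb on metastasis 2 only, Gstm2 and Cst12 mainly on metastasis 1, and Cldn4 and Cdh1 are low on both.

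Epithelial genes were lower in metastases 1 and 2. In the adhesion list, 17 of 18 measured members were lower over all arrays (56.1% of all genes), with a median difference of −0.22, −0.48 over the 12 arrays and 0.03 within the low-contrast ones. Epcam, Grhl2 and St14 reached an unadjusted p under 0.05, all lower (3.37% of all genes), and none passed. Both metastases lay below tumours 1, 2, 6 and 7 for 7 of the 18, against 2303 genes in all (7.64%). Metastases 3 and 4 lay below tumours 3, 4 and 5 for 3 of the 18 (9.64% of all genes). Metastases 1 and 2 also lay below tumours 1, 2, 6 and 7 for 10 of 18 basal and squamous genes and 5 of 19 luminal genes. Over all arrays 16 genes were lower in each list, with medians of −0.19 (basal and squamous) and −0.50 (luminal). Over the 12 arrays these medians were −0.35 and −0.85. Within the low-contrast arrays they were −0.05 (6 higher, 12 lower) and −0.02 (9 higher, 10 lower). The all-array luminal median was −0.16 without tumour 7 and −0.20 without metastasis 1. The all-array adhesion median was −0.11 without metastasis 1.

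Cldn4, a tight junction claudin, read 4.86, 4.46, 5.94 and 5.54 on metastases 1 to 4. On the tumours it ran from 5.58 to 8.06 (median 6.00). Metastases 1, 2 and 4 were below every tumour, metastasis 4 by little, and metastasis 3 was inside their range. The difference was −1.44 ± 0.49 (SE; adjusted p of 0.841 by limma) over all arrays and −2.21 over the 12. Cdh1, E-cadherin, read 5.03, 5.27, 6.69 and 6.24, against 5.93 to 8.12 (median 6.29). Grhl2, a transcription factor that maintains epithelial genes, read 5.34, 5.77, 5.97 and 6.22, against 6.02 to 7.17 (median 6.26). Metastases 1 and 2 were below every tumour in both genes and metastasis 3 in Grhl2, while metastasis 4 was inside the tumour range in both.

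Elf3, an epithelial transcription factor of the luminal list, read 4.63, 4.60, 5.04 and 4.81 on the metastases and 4.82 to 5.95 on the tumours. Trp63, which codes for p63 of basal cells, read 4.80, 4.97, 5.34 and 5.42, against 5.12 to 6.50. Krt5 read 5.02, 5.44, 6.45 and 6.59, against 5.54 to 9.38, whereas Krt14, its usual partner, read 5.08 to 5.65 in metastases and 5.20 to 6.09 in tumours. Many of these levels were near the dim level. The uroplakin Upk1a read 5.46, 5.99, 8.12 and 7.51 on the metastases, against 5.48 to 14.18, and Krt18 read 4.46, 6.32, 6.77 and 6.86, against 5.09 to 10.998. In Upk1a and Krt18 the top of the tumour range is tumour 7 alone.

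Genes of smooth muscle, which forms the bladder wall, were far higher on tumour 7 than on any other of the 11 arrays. All 17 measured smooth muscle genes were lower in metastases (56.1% of all genes). Their median difference was −0.55 over all arrays and −1.03 over the 12. Tumour 7 decided both values, which were −0.08 and −0.22 without it, and within the low-contrast arrays the median was 0.00. None reached an unadjusted p under 0.05. The level of the list was 5.62, 5.74, 6.65 and 6.64 on the metastases, 9.19 on tumour 7 and 5.70 to 6.68 on the other 6 tumours. Acta2, the smooth muscle actin, read 6.18, 6.94, 7.54 and 7.73, against 12.16 on tumour 7 and 5.66 to 7.79 on the others, and Myh11, the smooth muscle myosin, read 5.61, 5.57, 7.23 and 7.24, against 11.63 and 5.31 to 7.30. The epithelial and muscle levels of tumour 7 were high together, and the share of bladder wall in each sample was not measured. Of 14 skeletal muscle genes 13 were lower in metastases (56.1% of all genes), with a median of −0.26. The median was −0.56 over the 12 arrays. Within the low-contrast arrays it was 0.05, with 9 genes higher and 5 lower.

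With tumour 6 counted, the mesenchymal list did not mirror the epithelial one. Of 14 genes, 9 were higher (43.9% of all genes), with a median difference of 0.04 over all arrays. Over the 12 arrays the median was 0.004, and 0.42 without tumour 6, so that tumour decided it. The highest level of the list was on tumour 6 (6.99), against 6.45, 6.26, 6.09 and 5.96 on the metastases. Cdh2, N-cadherin, read 7.09, 6.91, 6.01 and 5.88 on the metastases, against 5.36 to 6.19, and had a difference of 0.68 ± 0.22 (SE; adjusted p of 0.841 by limma). Vim, vimentin, read 7.26, 7.16, 6.40 and 5.97, against 5.28 to 7.41. In Cdh2 metastases 1 and 2 exceeded all tumours, and tumour 6 exceeded them in Vim. The transcription factors Snai2, Twist1 and Zeb1 had differences of −0.22, 0.02 and −0.09.

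Of 23 genes linked to metastasis in the literature of cancer, 18 were lower in metastases (56.1% of all genes). Their median difference was −0.15 over all arrays and −0.29 over the 12. Within the low-contrast arrays it was −0.07, with 11 genes higher and 12 lower. Tumour 6 again had the highest level (6.71, against 5.95 to 6.03 on the metastases and 5.78 to 6.10 on the other tumours). Postn, periostin, a matrix protein of fibroblasts, read 12.59 on tumour 6, and 6.55, 6.94, 7.79 and 7.43 on the metastases, against 6.28 to 7.96 on the other tumours. Cxcr4, the receptor for the homing chemokine Cxcl12, read 7.58, 7.66, 6.21 and 6.14, against 8.19 on tumour 6 and 5.18 to 6.19 on the other tumours. Without tumour 6 the 12-array difference of Cxcr4 was 2.32 (adjusted p of 0.00799 by limma), and with it 1.60 (adjusted p of 0.862). Neutrophil genes were highest on tumour 6 (7.13) and on the palbociclib metastasis (6.81), against 5.80 to 6.06 on metastases 1 to 4. S100a8, a calprotectin chain of neutrophils, read 13.56 on tumour 6.

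A small number of genes separated the groups on both sets of arrays. The metastases were all above the tumours in 37 genes (0.123%) and all below in 115 (0.382%). For a gene unrelated to the groups, each order arises in 1 of the 330 equally likely splits. Separation alone therefore does not set a gene apart from chance. Hnrnph2, an X-linked RNA-binding protein that takes part in splicing, had the smallest p of all genes. It read 6.51, 6.08, 5.97 and 6.20 on metastases 1 to 4 and 5.19, 5.33, 5.51, 5.39, 5.48, 5.68 and 5.57 on tumours 1 to 7. All 4 metastases lay above all 7 tumours, and the palbociclib metastasis (5.49) did not. Hnrnph2 read 5.54 to 5.84 on the normal bladders and 5.525 to 5.95 on the treated ones, also below the metastases. The difference was 0.74 ± 0.12 (SE; adjusted p of 0.207 by limma) over all arrays, 0.85 over the 12 and 0.62 within the low-contrast ones. The smallest p of an exact permutation test over these arrays is 0.00303, which Hnrnph2 shared with others, 54 genes in all, and it is named here because its p by limma was smallest.

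Defb5, a beta-defensin, was the counterpart among lower genes. It read 5.62, 5.43, 5.59 and 5.44 on metastases 1 to 4 and 6.21, 6.81, 6.57, 6.71, 6.88, 6.06 and 6.83 on tumours 1 to 7. Here too the groups did not overlap, with a difference of −1.06 ± 0.21 (SE; adjusted p of 0.579 by limma) over all arrays, −0.95 over the 12 and −1.21 within the low-contrast arrays. Defb5 read 5.71 to 6.66 on the normal bladders and 5.35 to 6.61 on the treated ones. Its lowest level in the series was thus on a treated bladder, not on a metastasis. Psapl1, a prosaposin-like gene, read 4.17, 4.19, 4.33 and 4.20 on the metastases, all under the dim level, against 4.44 to 5.69 on the tumours. Shroom1, which binds actin, read 5.07, 5.296, 5.39 and 5.43, against 5.56 to 5.79. Sfn, stratifin or 14-3-3 sigma of squamous and basal epithelium, read 4.77, 4.80, 5.14 and 4.69, against 5.07 to 5.97. Psapl1 and Shroom1 did not overlap between the groups, and Sfn did, through metastasis 3 and tumours 2 and 3.

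Other genes with small p were higher in metastases. Cep76, a centriole protein, read 5.51, 5.58, 5.42 and 5.23, against 4.95 to 5.21, with no overlap. Cadm4, a cell adhesion molecule, read 7.08, 6.61, 6.53 and 6.43, against 5.88 to 6.38, with no overlap. Rassf2, a Ras association protein of blood cells and bone, read 7.03, 6.74, 6.33 and 5.89, against 5.69 to 5.99. Gab2, an adaptor of growth factor and cytokine receptors, read 6.92, 7.03, 6.59 and 6.66, against 5.77 to 6.60. For Rassf2 metastasis 4, and for Gab2 metastasis 3, lay inside the tumour range. Each of these 4 genes had an adjusted p of 0.841 by limma over all arrays.

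The palbociclib metastasis, a single array with no replicate, had high myeloid and low epithelial genes, and its plasma protein genes were only slightly above the tumours or among them. Lyz2 read 12.84 there, C1qb 9.98 and Tlr7 10.04, while Alb read 5.46. Ahsg (6.50), Hp (8.37), Orm1 (6.99) and Ctsk (6.17) were above every tumour, and the level of the liver list was 5.72, against at most 5.67 on the tumours. Cldn4 read 4.55 and Cdh1 5.29, and Upk1a, at 4.07, was below all 11 arrays compared. It stood over 1 above the tumour mean for 376 genes and over 1 below for 299. The same counts were 986 and 195 on metastasis 1, 426 and 119 on metastasis 2, 183 and 215 on metastasis 3, and 204 and 221 on metastasis 4.

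List by list, the 2 sets of arrays gave unlike differences. Over the 12 arrays, the medians of 45 lists ran from −1.03 (smooth muscle) to 0.999 (macrophages and monocytes), where single arrays decide both ends (−0.22 for smooth muscle without tumour 7, 0.39 for macrophages without metastasis 1), and within the low-contrast arrays from −0.24 (male accessory glands) to 0.12 (checkpoint genes).

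**Figure D5:**
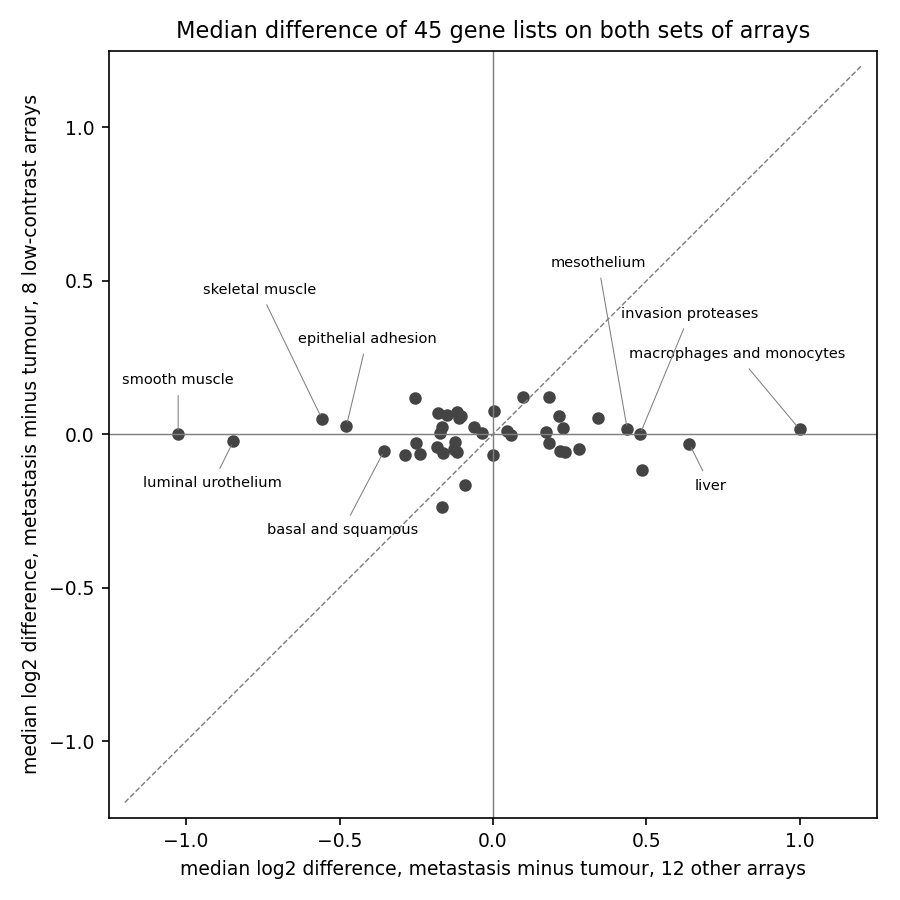
Median log2 difference, metastasis minus tumour, of 45 gene lists over the 12 other arrays (x axis: metastases 1 and 2 against tumours 1, 2, 6 and 7) and within the low-contrast arrays (y axis: metastases 3 and 4 against tumours 3, 4 and 5); each point is a list and the dashed line marks equal values. The lists spread from −1.03 to 0.999 along the x axis and stay near 0 on the y axis. The value at the left end is −0.22 without tumour 7.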

How the data were processed

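RNA was extracted with a kit for formalin-fixed, paraffin-embedded tissue, per the labels' protocols, and hybridised to whole-transcript arrays. The deposited values are log2 expression levels that the authors made with RMA in Affymetrix Expression Console, per the submitters' processing notes, whose versions are not given in the sources used here; base 2 is taken from RMA itself. The table holds 65956 rows on 20 arrays. Platform annotation gave 1 gene symbol to 30604 rows, and the brightest row of each gene was kept (30142 genes; 355 had several rows). No further normalisation or filter was applied. Differences, metastasis minus tumour, were fitted with limma 3.58.1 in R 4.3.3 over all 20 arrays in 5 groups, with Benjamini-Hochberg adjustment over all genes and a threshold of 0.05. The same fit was run over the 12 arrays outside the low-contrast set (SD among dim rows over 0.3 and no correlation of deviations with another array reaching 0.25) and within that set, with the interaction as the test of their difference. An exact permutation test over the 330 splits was also run. Arrays give no read depth, so their number limits the precision. On simulated data the fit recovered 73 of 100 genes changed by 1 and 94 of 100 changed by 2 on the log2 scale, with 8 false calls. The simulated noise was normal, independent and equal on all arrays for a gene, and the change was the same on all 4 metastases. The data hold low-contrast arrays, so these rates do not apply to genes raised on metastases 1 and 2 only. Gene lists (46 lists, 656 of 724 genes measured) are described by counts and medians; list genes without a row are not used here. The members and lists were chosen with earlier results of these data known. Since no gene passed over all arrays, the rule named the 10 genes of smallest p in each direction among those not dim, the 10 largest differences in each direction at an unadjusted p under 0.05, the engineered loci and, for each list, its first 4 measured members and the 2 members of smallest p in each direction, leaving out predicted genes, small RNAs, receptors of smell and antigen receptor segments, of which the text gives those that show a list. Other list members named, genes past the threshold over the 12 arrays or with 1 of them left out, and genes named for a single array were chosen after their values were seen.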

Additional observations from a re-analysis of the deposited data

Results flagged for a closer look

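Values far from the rest of their own group were looked for by Dixon's test over 90 sets of list levels and 154 sets of gene levels in the 4 metastases and the 7 tumours. It marked 22 list levels, where chance marks about 1 in 20 sets and lists are not independent of each other. It marked 14 gene levels, a number with no chance rate to set it against, since several of these genes were named because they stood apart on 1 array. No explanation was tested for any of them.

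Among the metastases, metastasis 1 stood apart in the levels of the pocket protein genes (7.03), S phase (6.76), G2 and mitosis (6.71), antigen presentation (7.22), chemokines and interleukins (5.99), oxidative phosphorylation (6.98), polycomb (7.60) and DNA repair (5.94). Its single genes were Mki67 (8.96), Gstm2 (11.89), Cst12 (9.08) and Defb19 (6.91). Metastasis 2 stood apart in mesothelial genes (7.12), integrins and laminins (6.24), Alb (9.40) and Fgg (10.16).

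Among the tumours, tumour 6 was high in G1 and Cdk genes (6.32), mesenchymal genes (6.99), fibroblast matrix (8.24), invasion proteases (6.98), neutrophil genes (7.13), chemokines and interleukins (6.05), glycolysis (7.34), metastasis factors (6.71), Postn (12.59) and Cxcr4 (8.19), and low in liver genes (5.12). Tumour 7 was high in luminal genes (9.03), smooth muscle (9.19), Upk1a (14.18), Krt18 (10.998), Acta2 (12.16) and Myh11 (11.63), and low in Hp (7.48). Tumour 1 was low in Ctsb (6.68) and tumour 2 in endothelial genes (5.49).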

How the results depend on the processing

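Over all arrays, the count of genes past the adjusted threshold was 0 under every alternative fitted except leaving out the low-contrast arrays, where it was 3. The 1745 genes at an unadjusted p under 0.05 became 1128 with dim genes left out, where fewer genes were tested, and 1171 to 2843 with single replicates left out, the highest without tumour 6. With the replicate number as a block the count was 2146 and none passed. Metastases and tumours of the same number correlated at −0.506, 0.039, −0.044 and −0.082 in their deviations from group means. Arrays 3 and 4 of both groups are low-contrast arrays, chosen for correlating with no other array, so pairing could not show there. Whether the numbers pair samples is therefore not known. Over the 12 arrays, 3 calls became 1 with the metastases and tumours alone, 1 with the palbociclib metastasis counted, and 3 to 28 with single replicates left out (5 without tumour 6, 13 without metastasis 1, 28 without metastasis 2). These 12-array alternatives were chosen after seeing the data; the cause of each shift was not tested. Of 856 gene values under alternatives, 9 changed sign and 3 gained a call. Gstm2 was −0.22 within the low-contrast arrays. Rb1 was −0.041 with the palbociclib metastasis counted, −0.17 within the low-contrast arrays and −0.073 to 0.10 with single replicates left out. Rbl1 was −0.071 to 0.59 with single replicates left out, the lowest without metastasis 1. Of 919 list medians, 906 moved by less than 1 SD between arrays and 70 changed sign; the liver median was 0.96 with dim genes left out and −0.08 without metastasis 2.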
